A study of Mus musculus with 24 samples.

Results

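The cadherin superfamily was followed in the prefrontal cortex (PFC) through 67 of the 14074 genes of the normalized count table. They were chosen by name: every gene whose symbol starts with Pcdh (protocadherins) or consists of Cdh and a number (classical and related cadherins), apart from the endothelial cadherin Cdh5. Of the 67 genes, 40 were clustered protocadherins (4 Pcdha, 16 Pcdhb and 20 Pcdhg) and 27 were non-clustered, made up of 11 Pcdh and 16 Cdh genes. All 67 had at least 10 reads in every library, with 29 as the fewest, and all 67 were tested. In the mouse gene annotation, 91 genes fit the same naming rule, and the other 24 were not analysed here.

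Cadherins are membrane proteins whose extracellular repeats bind, in the presence of calcium, to cadherins of the same kind on a neighbouring cell. Classical cadherins anchor this contact to actin through catenins, type I members being broadly expressed and strongly adhesive, and type II members marking particular neuron groups and their synapses. Clustered protocadherins lie in tandem arrays, and individual neurons switch on different sets of alternative promoters, which gives each neuron a surface identity used in dendrite self-avoidance. The delta protocadherins are expressed from separate loci and act in axon growth, synapse number and actin control through the WAVE complex.

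The libraries came from 24 adult male C57BL/6 mice, 1 library per mouse and 4 mice per group. Control mice were not defeated. The remaining mice went through 30 days of chronic social defeat and were sorted by their behaviour with an aggressor into a passive coping strategy (PS) or an active one (AS), a division that rests on clustering of behaviour and not on a genotype. Mice of each kind received saline or the glucocorticoid receptor agonist dexamethasone (DEX, 2 mg/kg) and were killed 6 h later, which gave saline-treated and DEX-treated control, PS and AS groups. The tissue was a block of frontal cortex that takes in several cortical areas, and RNA was selected by its poly(A) tail. In such bulk tissue, fewer cells of a type and less RNA per cell cannot be told apart.

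Between 21121869 and 59439645 reads per library were assigned to the genes of the table (median 24420129). All 8 pyramidal neuron markers were in the table, and none was at 0 in a library. Fkbp5, a feedback inhibitor of the glucocorticoid receptor, rose under DEX from 761 to 888 normalized counts in control mice to between 3447 and 4198. Of 5 olfactory bulb markers, 4 (Th, Eomes, Cdhr1 and Doc2g) were in the table, and their summed level ran from 105 to 4709 normalized counts, with 1 library well above the rest in nearly every group: 4709 in saline-treated control mouse 117, 1653 in saline-treated PS mouse 2, 1691 in saline-treated AS mouse 14, 938 in DEX-treated control mouse 122, 3719 in DEX-treated PS mouse 34 and 616 in DEX-treated AS mouse 38. In 3 other libraries (saline-treated AS mouse 44, DEX-treated AS mouse 60 and DEX-treated control mouse 101) the clustered protocadherins were low as a body. Results that rest on either set are given with and without them, a choice made after seeing the data.

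Part of each Pcdha and Pcdhg transcript is shared with its neighbours, which bears on how levels can be compared. All 4 Pcdha genes ended at the same base of chromosome 18, 37187657, and 16 of the 20 Pcdhg genes ended at 37841873, since each variable first exon is spliced to common last exons. A median of 46.4% of the exon bases of a Pcdha gene and 55.3% of those of a Pcdhg gene belonged to that gene alone, against 100% for Pcdhb genes, which have a single coding exon. How the deposited counts treated reads from shared exons is not given in the sources used here. Levels of different genes are therefore compared per kilobase of exon that belongs to 1 gene.

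On that scale (mean normalized counts per kilobase over the 24 libraries), Pcdh1, a delta-1 protocadherin, stood highest at 836, followed by the C-type isoform Pcdhgc5 at 785. The type II cadherin Cdh22 stood at 505, and the delta-1 and delta-2 genes Pcdh7 and Pcdh10 at 494 and 490. N-cadherin (Cdh2), the main type I cadherin of neurons, stood at 370. Of the other C-type isoforms, which are not chosen stochastically as the variable isoforms are, Pcdhgc3 stood at 476, Pcdhac2 at 285 and Pcdhgc4 at 88.8, beside a median of 78.3 over the 40 clustered genes and 109 over the Pcdhg genes. The median of the 27 non-clustered genes was 129. Pcdhb genes had the lowest median of the clusters, 37.4, and ranged from 22.0 (Pcdhb8) to 107 (Pcdhb9).

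**Figure D1:**
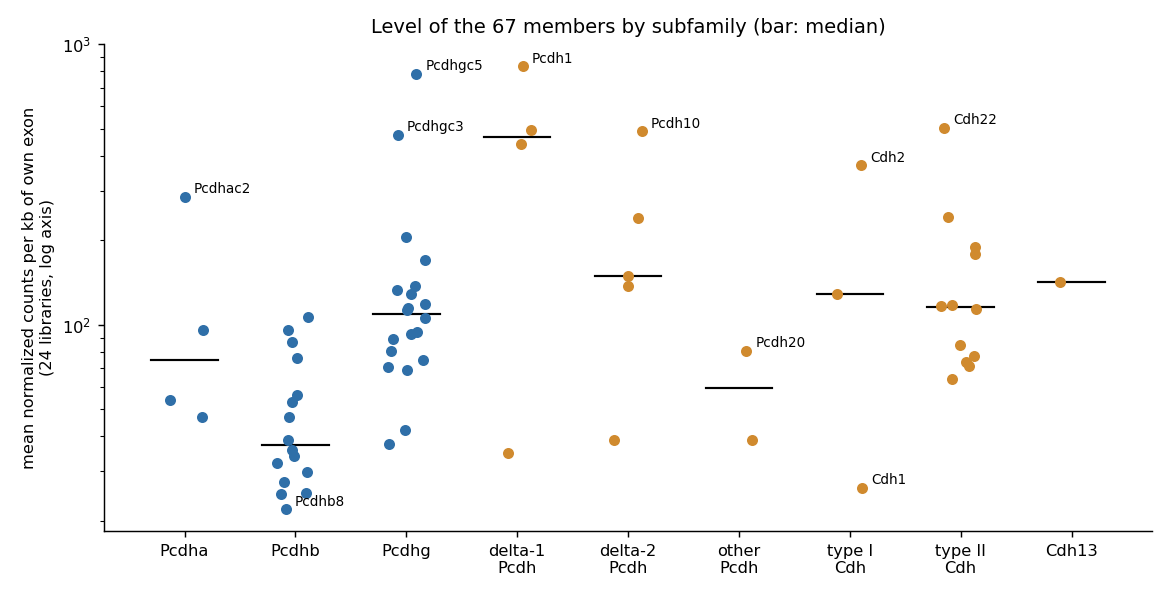
Mean normalized counts per kilobase of exon belonging to 1 gene (24 libraries, log axis) for each of the 67 genes, by subfamily; each point is a gene, blue for clustered and orange for non-clustered genes, and bars are medians. Pcdh1 (836) and Pcdhgc5 (785) stand at the top, and the Pcdhb genes lie between 22.0 and 107.

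Within genes, the spread over libraries was moderate. In normalized counts, Pcdh10 had a mean of 7780 (lowest library 5541, highest 9177, coefficient of variation 13.2%) and Pcdh1 a mean of 7352 (5281 to 9099, 12.1%), so these 2 genes overlapped and no order between them is drawn. The most even members were Pcdhb17 at 8.0% and Cdh2 at 8.1%. The least even was Cdh1 (E-cadherin, an epithelial type I cadherin) at 43.3%, with levels from 31.9 to 240 normalized counts.

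Promoter sequence was available from RefSeq (build GRCm38.p6) for 19 of the 67 genes and for 6 of the 8 that passed under DEX in limma below. The windows of Pcdh20 and Pcdh18, which were lower under DEX, and of Cdh20, which was higher in DEX-treated AS mice, are printed because they show how unlike the upstream sequences of these genes are. Each run holds the 250 bases before the RefSeq start, 5′ to 3′ on the gene's strand, with CG dinucleotides in capitals. The window of Pcdh20 is chr14:88471397-88471646 on the minus strand, that of Pcdh18 chr3:49757317-49757566 on the minus strand, and that of Cdh20 chr1:104768270-104768519 on the plus strand.
Pcdh20: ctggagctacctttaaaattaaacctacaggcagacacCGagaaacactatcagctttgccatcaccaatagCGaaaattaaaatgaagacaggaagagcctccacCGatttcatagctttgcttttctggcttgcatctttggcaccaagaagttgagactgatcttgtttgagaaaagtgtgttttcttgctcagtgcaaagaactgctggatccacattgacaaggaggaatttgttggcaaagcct
Pcdh18: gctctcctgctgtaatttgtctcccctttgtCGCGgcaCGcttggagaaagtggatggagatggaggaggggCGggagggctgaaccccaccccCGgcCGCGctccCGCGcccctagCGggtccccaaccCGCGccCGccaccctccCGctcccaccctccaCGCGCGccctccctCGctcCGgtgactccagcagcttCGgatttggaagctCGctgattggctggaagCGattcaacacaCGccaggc
Cdh20: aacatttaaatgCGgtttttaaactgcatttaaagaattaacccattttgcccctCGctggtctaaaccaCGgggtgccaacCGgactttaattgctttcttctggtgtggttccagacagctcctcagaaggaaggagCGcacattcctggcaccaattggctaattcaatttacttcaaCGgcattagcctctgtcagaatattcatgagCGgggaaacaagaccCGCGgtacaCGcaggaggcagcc
Pcdh20 had 3 CG dinucleotides and 42.4% G and C, Cdh20 had 10 and 47.6%, and Pcdh18 had 23 and 68.0%, while the median of the 32851 windows in the table was 6 and 52.4%. The glucocorticoid receptor half-site was searched as AGAACA and TGTTCT, which are each other's reverse complement, so both strands were covered. It was found in no window of the 6 genes that passed under DEX, in 1 of the 19 genes with a window (Pcdh10), and in 16.1% of all windows. The full site, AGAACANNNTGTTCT, was in no window of these genes and in 0.00913% of all windows.

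Chronic defeat was examined first, in saline-treated mice, by the moderated test of limma on log2(normalized count + 1), with Benjamini-Hochberg adjustment over 14060 genes and a threshold of 0.1 on the adjusted p. No cadherin gene passed in PS or in AS mice. In PS against control mice the background was 1.51% of all genes called. There 4 of the 67 genes had an unadjusted p under 0.05, all 4 of them lower. Of all genes, 6.66% were lower at that limit and 13.2% reached it in either direction. In AS against control mice the background was 0.185%, and 15 of the 67 genes had an unadjusted p under 0.05, again all lower, beside 5.36% of all genes lower at that limit. Those 15 were 7 clustered and 8 non-clustered genes. Neither edgeR nor DESeq2 on the recovered reads called a cadherin gene in either comparison.

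Below the threshold, most genes of both kinds lay under the control level. In PS mice the middle clustered gene had a log2 difference of -0.09 and the middle non-clustered gene -0.05. In AS mice these medians were -0.19 and -0.13, while the median over all genes tested was 0.00 in both. In AS mice 35 of 40 clustered and 24 of 27 non-clustered genes had a negative sign, against 49.1% of all genes. The 4 Pcdha genes had the largest displacement, with a median of -0.55 in AS mice.

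Pcdhac2, the most abundant Pcdha isoform, had 1127, 1081, 1162 and 929 normalized counts in saline-treated controls, 805, 892, 1005 and 930 in PS mice and 967, 797, 792 and 552 in AS mice. Its log2 difference between AS and control mice was -0.49 ± 0.17 (SE), with an unadjusted p of 0.0089 and an adjusted p of 0.306 in limma, and 3 of the 4 AS libraries lay below the lowest control. Pcdha5 had 147, 160, 149 and 155 in controls and 118, 113, 103 and 73 in AS mice, groups that did not overlap, with a log2 difference of -0.60 ± 0.24 and an adjusted p of 0.358. Over all genes, 3.07% had 4 AS libraries entirely below the 4 controls, as 8 of the 67 cadherin genes did.

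Of the most abundant non-clustered genes, Pcdh7 and Pcdh17 (delta-2, found at corticostriatal synapses) had log2 differences of -0.29 ± 0.13 and -0.36 ± 0.14 between AS and control mice, with adjusted p of 0.401 and 0.360 in limma. Pcdh10 and Cdh2 had -0.27 ± 0.13 and -0.16 ± 0.07, with adjusted p of 0.451 and 0.428. None of these is a call.

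The AS displacement was also taken without the 3 low libraries, of which saline-treated AS mouse 44 was one. Without the 3 low libraries, the clustered median moved from -0.19 to -0.11 and the non-clustered median from -0.13 to -0.12, and 13 genes were lower and 3 higher at an unadjusted p under 0.05. The 13 lower genes were 19.4% of the cadherin genes, beside 6.64% of all genes lower at that limit in the same fit. With the length dependence of each library as a covariate, 5 genes were lower and 2 higher. Those 5 were 7.46% of the cadherin genes, beside 6.48% of all genes lower at that limit. With the covariate, the share of lower cadherin genes was therefore near that of genes at large.

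AS and PS mice were also set against each other under saline. No gene of any kind passed the threshold in this comparison (0% of 14060 genes), and 3 cadherin genes had an unadjusted p under 0.05 beside 4.79% of all genes. Pcdhb22 was among them, at -0.32 ± 0.13 on the log2 scale (AS against PS, adjusted p = 0.934 in limma).

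In limma, DEX moved a small set of non-clustered genes and no clustered gene past the threshold. In control mice 3 of 67 genes passed, in PS mice 4, in AS mice 3, and in the mean of the 3 DEX effects 6. The background of all genes called was 6.51%, 5.40%, 8.80% and 15.5% in the same order, so the share of cadherin genes (3 to 6 of 67) was near or below that of genes at large. The calls of limma fell on 8 genes: Pcdh20, Pcdh18, Cdh11 and Cdh6 were lower, and Cdh19, Cdh20, Cdh24 and Cdh22 were higher. On the recovered reads edgeR also called Pcdh9 and Cdh1 in AS mice and Cdh7 in the mean, and DESeq2 also called Pcdh9 and Cdh2 in AS mice and Cdh7 in the mean.

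**Figure D2:**
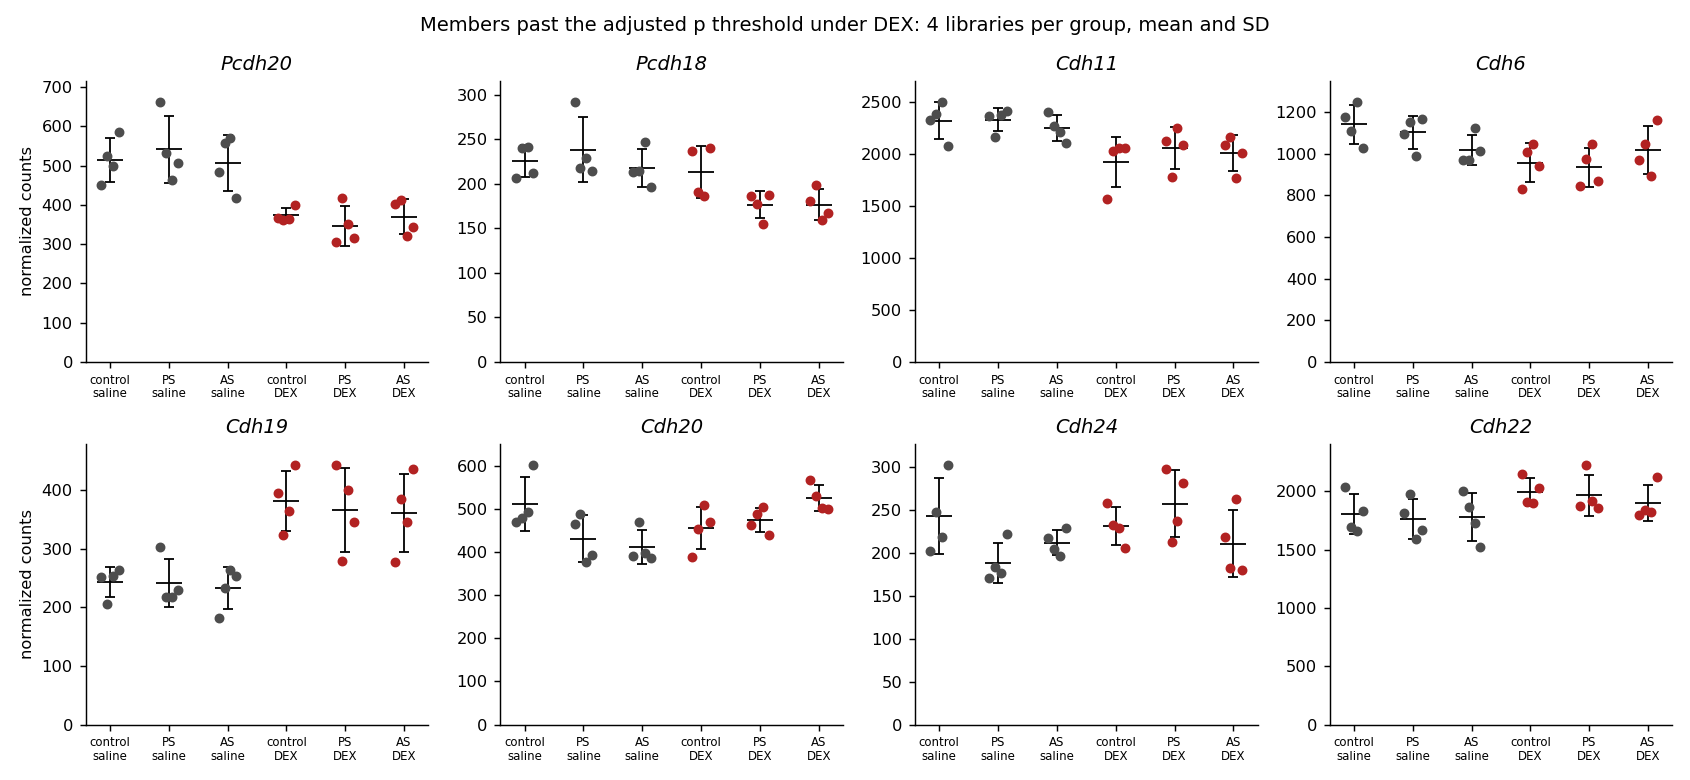
Normalized counts of the 8 genes that passed the adjusted p threshold of limma in a DEX comparison, by group, with saline-treated mice in grey and DEX-treated mice in red; points are the 4 libraries of a group and bars are mean and SD. In Pcdh20 every DEX-treated library (305 to 418) lies at or below the lowest saline-treated library (418), and in Cdh19 the DEX-treated libraries (278 to 444) lie mostly above the saline-treated ones (182 to 303).

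Pcdh20 (ENSMUSG00000050505, chr14:88464743-88471396, minus strand of mm10), a non-clustered protocadherin outside the delta groups, fell under DEX in all 3 kinds of mice. Its normalized counts were 451, 524, 498 and 585 in saline-treated and 366, 363, 364 and 401 in DEX-treated controls. In PS mice they were 663, 533, 464 and 508 under saline and 305, 418, 351 and 316 under DEX, and in AS mice 483, 558, 570 and 418 under saline and 403, 412, 320 and 344 under DEX. The saline-treated and DEX-treated libraries did not overlap within any of the 3 kinds of mice. The log2 fold change was -0.46 ± 0.12 in controls (limma, adjusted p = 0.0284), -0.64 ± 0.12 in PS mice (adjusted p = 0.00196) and -0.45 ± 0.12 in AS mice (adjusted p = 0.0253), and its mean over the 3 was -0.52 ± 0.07 (adjusted p = 8.13e-06). The difference in response between PS and control mice was -0.18 ± 0.17 and that between AS and control mice 0.00 ± 0.17, neither past the threshold. In limma fits that left out 1 library, the call was lost in controls without saline-treated mouse 117 (adjusted p = 0.103) and in AS mice without saline-treated mouse 40 (adjusted p = 0.107).

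In 4 of the 6 groups the library highest in olfactory bulb markers was also highest in Pcdh20: 585 in mouse 117, 663 in mouse 2, 401 in mouse 122 and 418 in mouse 34. Without the library highest in those markers in each group, Pcdh20 passed in the same 4 comparisons. The part of olfactory bulb tissue in the levels of this gene was not tested further.

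Cdh19 (ENSMUSG00000047216, chr1:110888326-110977584, minus strand of mm10), a type II cadherin known from glia of the neural crest lineage, rose under DEX in all 3 kinds of mice. Its normalized counts were 251, 207, 253 and 263 in saline-treated and 396, 323, 365 and 444 in DEX-treated controls, and 182, 233, 264 and 253 in saline-treated and 278, 385, 345 and 436 in DEX-treated AS mice, with no overlap in either. In PS mice the 2 groups overlapped, with 303, 218, 217 and 230 under saline and 443, 278, 401 and 345 under DEX. The log2 fold change was 0.64 ± 0.15 in controls (limma, adjusted p = 0.0147), 0.59 ± 0.15 in PS mice (adjusted p = 0.0299) and 0.63 ± 0.15 in AS mice (adjusted p = 0.015), with a mean of 0.62 ± 0.09 (adjusted p = 1.96e-05). Differences in response between kinds of mice were small beside their error, at -0.05 ± 0.22 for PS and -0.02 ± 0.22 for AS against control mice. In PS mice the call was lost without saline-treated mouse 28 or DEX-treated mouse 6.

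Oligodendrocyte markers were counted beside Cdh19. Over the 8 markers, 0 rose and 2 fell under DEX in controls (median log2 fold change -0.31), 0 changed in PS mice (median 0.14), and 2 rose in AS mice (median 0.42). In the mean DEX effect 1 rose and 0 fell, while Cdh19 was higher by 0.59 to 0.64 in all 3. The summed marker level ran from 30858 to 48577 in saline-treated and from 26785 to 38348 in DEX-treated controls. It ran from 24990 to 36218 and from 31742 to 40906 in PS mice, and from 20228 to 34555 and from 32336 to 47517 in AS mice, and the groups overlapped in each kind. Of the 6 oligodendrocyte precursor markers, 2 rose and 1 fell in controls, and 0 passed in PS or AS mice. The part of these cells in the Cdh19 result was not tested.

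Pcdh18 (ENSMUSG00000037892, chr3:49743296-49757325, minus strand of mm10), a delta-2 protocadherin, was lower under DEX in stressed mice. Its normalized counts were 292, 217, 229 and 214 in saline-treated and 186, 178, 154 and 187 in DEX-treated PS mice, with no overlap. In AS mice they were 213, 215, 246 and 196 under saline and 180, 199, 159 and 167 under DEX, and in controls 207, 240, 241 and 212 under saline and 236, 190, 186 and 240 under DEX, with overlap in both. The log2 fold change was -0.42 ± 0.11 in PS mice (limma, adjusted p = 0.0363), -0.30 ± 0.11 in AS mice (adjusted p = 0.139) and -0.08 ± 0.11 in controls (adjusted p = 0.822), with a mean of -0.27 ± 0.07 (adjusted p = 0.00679). The response of PS mice differed from that of controls by -0.34 ± 0.16, with an adjusted p of 0.489, so the difference between kinds of mice missed the threshold. The PS call was lost without saline-treated mouse 2, without DEX-treated mouse 52, and without the 6 libraries highest in olfactory bulb markers, where the log2 fold change was -0.33 (limma, adjusted p = 0.335).

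Cdh11 (ENSMUSG00000031673, chr8:102632095-102785642, minus strand of mm10), a type II cadherin of mesenchymal cells and neurons, had 2326, 2389, 2505 and 2077 normalized counts in saline-treated and 1570, 2028, 2057 and 2063 in DEX-treated controls, so that every DEX-treated library lay below every saline-treated one, though only just (2063 against 2077). The log2 fold change in controls was -0.27 ± 0.09 (limma, adjusted p = 0.0802), and in the mean of the 3 DEX effects -0.21 ± 0.05 (adjusted p = 0.0063). The lowest library, DEX-treated mouse 101, was one of the 3 low ones, and without those 3 the control value was -0.18 (limma, adjusted p = 0.191) while the mean still passed. The control call was also lost when only the groups compared were fitted and without saline-treated mouse 106, 107 or 109.

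Cdh6 (ENSMUSG00000039385, chr15:13028701-13173675, minus strand of mm10), another type II cadherin, passed only in the mean over the 3 kinds of mice, at -0.17 ± 0.05 (limma, adjusted p = 0.0369). Its values were 1026 to 1249 in saline-treated and 831 to 1045 in DEX-treated controls, 990 to 1167 and 844 to 1049 in PS mice, and 969 to 1121 and 895 to 1162 in AS mice, which overlapped in each kind. The effect was -0.26 ± 0.09 in controls, -0.24 ± 0.09 in PS mice and -0.00 ± 0.09 in AS mice. Without the 3 low libraries the mean missed the threshold (limma, adjusted p = 0.104).

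Markers of vessels and meninges were counted beside Pcdh18, Cdh11 and Cdh6. Of 8 endothelial markers 0 passed in controls, 2 fell in PS mice and 6 fell in AS mice, with summed levels from 5026 to 7960 in saline-treated and from 3426 to 5308 in DEX-treated AS mice. Of 8 mural cell markers 0, 0 and 4 fell in the same order, and the middle marker stood at 0.36, -0.31 and -0.71 on the log2 scale. Of the 6 leptomeningeal markers analysed, 1 rose in controls and 0 passed in PS or AS mice. Their median log2 fold change was 0.37 in control, -0.66 in PS and -0.61 in AS mice. For the endothelial markers it was 0.09, -0.43 and -0.73. Cdh11, lower under DEX in controls, had 2167 to 2420 normalized counts in saline-treated and 1781 to 2254 in DEX-treated PS mice. In AS mice it had 2106 to 2405 and 1767 to 2171. The part of vessel and meningeal cells in the 3 cadherin results was not tested.

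Cdh20 (ENSMUSG00000050840, chr1:104768529-104995481, plus strand of mm10), a type II cadherin, rose under DEX in AS mice. Its normalized counts were 391, 469, 398 and 385 in saline-treated and 565, 530, 502 and 500 in DEX-treated AS mice, with no overlap and a log2 fold change of 0.35 ± 0.10 (limma, adjusted p = 0.0330). In controls the values were 468, 478, 493 and 602 under saline and 389, 454, 508 and 469 under DEX (-0.16 ± 0.10, limma, adjusted p = 0.473), and in PS mice 465, 488, 376 and 393 and 462, 488, 504 and 440 (0.14 ± 0.10, adjusted p = 0.621). The DEX response in AS mice exceeded that in controls by 0.52 ± 0.14, with an adjusted p of 0.113 in limma, where the background was 0.349% of genes called. DESeq2 gave 0.52 with an adjusted p of 0.0355 for the same difference. The difference passed in 7 of 37 other settings, and in limma the AS call itself was lost without saline-treated mouse 8 (adjusted p = 0.108). Saline-treated AS and PS mice had lower Cdh20 than controls, by -0.31 ± 0.10 and -0.25 ± 0.10, with adjusted p of 0.261 and 0.276. The median of the 8 oligodendrocyte markers was -0.47 and -0.19 in the same comparisons, where 0 of them passed. Under DEX it was -0.31 in control, 0.14 in PS and 0.42 in AS mice, beside -0.16, 0.14 and 0.35 for Cdh20. The part of oligodendrocytes in the Cdh20 result was not tested.

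Cdh24 (ENSMUSG00000059674, chr14:54631231-54641364, minus strand of mm10), a type II cadherin, had 171, 183, 177 and 222 normalized counts in saline-treated and 298, 213, 237 and 282 in DEX-treated PS mice, which overlapped in 1 library of each. Its log2 fold change was 0.44 ± 0.14 (limma, adjusted p = 0.0718), against -0.06 ± 0.14 in controls and -0.02 ± 0.14 in AS mice. The response of PS mice exceeded that of controls by 0.50 ± 0.19 and that of AS mice was below that of PS mice by -0.47 ± 0.19, with adjusted p of 0.402 and 1. The call was lost with library size as a covariate, without the 6 libraries highest in olfactory bulb markers (limma, adjusted p = 0.115), and without saline-treated mouse 2, 28 or 62 or DEX-treated mouse 6 or 56.

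Cdh22 (ENSMUSG00000053166, chr2:165111507-165234853, minus strand of mm10), the most abundant type II cadherin per kilobase, passed in the mean over the 3 kinds of mice, at 0.13 ± 0.05 (limma, adjusted p = 0.0955). It had 1664 to 2036 normalized counts in saline-treated and 1897 to 2148 in DEX-treated controls, and overlapped between saline and DEX in PS and AS mice as well. The call was lost in 6 of 13 other settings and in 14 of the 24 fits that left out 1 library, among them the fit without the 3 low libraries.

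**Figure D3:**
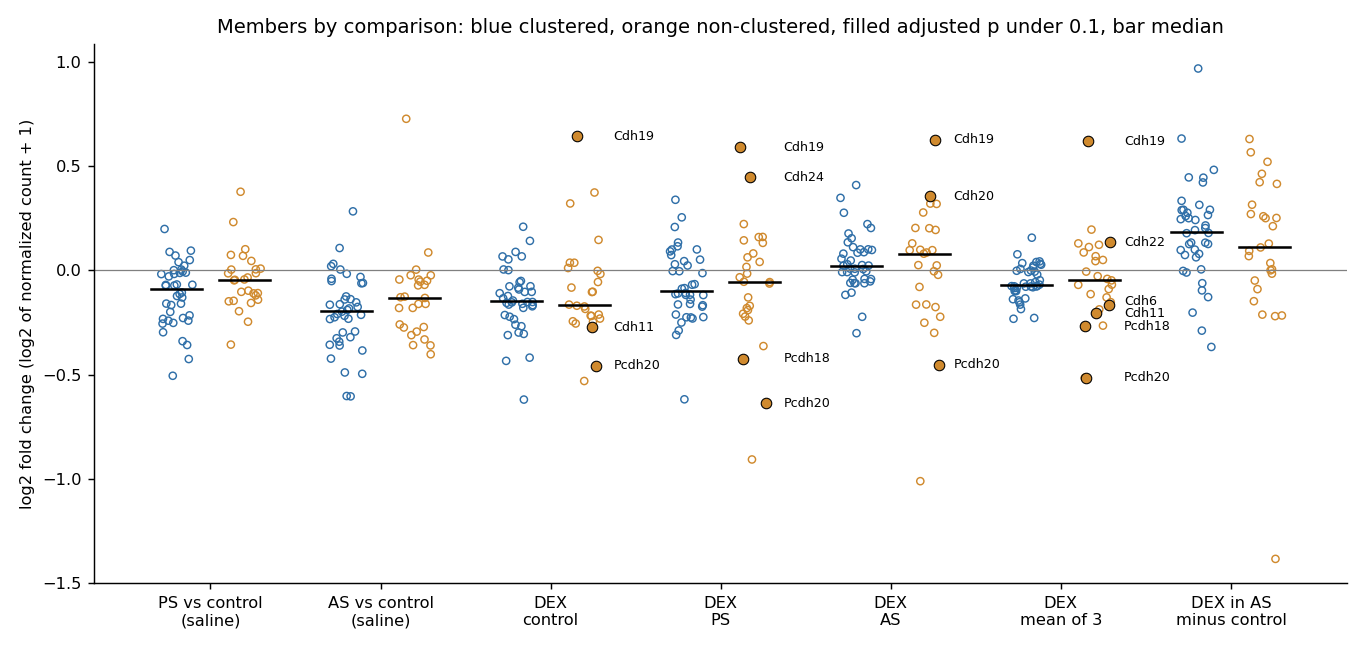
Log2 fold change of each of the 67 genes (on log2 of normalized count + 1) in 7 comparisons; blue points are the 40 clustered and orange points the 27 non-clustered genes, filled points have an adjusted p under 0.1 in limma and are named, and bars are medians. The named points are all non-clustered, and the clustered median runs from -0.19 (AS against control under saline) to 0.19 (DEX response in AS minus that in control mice).

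Among the 40 clustered protocadherins, none passed in any of the 11 tests by limma, and none by edgeR or DESeq2 on the recovered reads. At an unadjusted p under 0.05 under DEX, there were 3 in controls (15.3% of all genes), 2 in PS mice (13.7%) and 1 in AS mice (18.3%), all of them lower, and 0 of 40 in the mean over the 3, where 22.2% of all genes reached that limit. The clustered median was -0.15 in controls, -0.10 in PS mice and 0.02 in AS mice.

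The C-type isoforms followed no single direction. Pcdhgc5 had -0.18 ± 0.16, -0.12 ± 0.16 and -0.11 ± 0.16 on the log2 scale under DEX in control, PS and AS mice, and Pcdhgc3 had 0.07 ± 0.14, -0.22 ± 0.14 and -0.30 ± 0.14, with an adjusted p of 0.268 in AS mice. Pcdhac2 had -0.42 ± 0.17 in controls, with 554, 885, 976 and 859 normalized counts under DEX against 929 to 1162 under saline, which overlapped in 1 DEX-treated library (adjusted p = 0.211). Pcdhb17 and Pcdhb22, the Pcdhb genes with the most counts, had -0.08 ± 0.09 and -0.08 ± 0.13 in controls. Pcdha12 had -0.30 ± 0.18, -0.11 ± 0.18 and -0.01 ± 0.18 in control, PS and AS mice.

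Pcdha5 had the largest clustered difference in DEX response between AS and control mice, 0.97 ± 0.34 (adjusted p = 0.201), and was singled out after its values were seen. It had 147, 160, 149 and 155 normalized counts in saline-treated and 52.2, 130, 124 and 114 in DEX-treated controls, and 118, 113, 103 and 73 in saline-treated and 157, 160, 81 and 130 in DEX-treated AS mice. The lowest values of the 3 groups other than saline-treated controls, 52.2, 73 and 81, came from mice 101, 44 and 60.

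Those mice carried the low libraries. Summed over the 40 genes, the clustered protocadherins had 16433 ± 933 (SD, n = 4) normalized counts in saline-treated controls, 15130 ± 479 in PS and 14752 ± 2389 in AS mice, and 15134 ± 1475, 14251 ± 861 and 14532 ± 2784 under DEX in the same order. The low libraries held 11321 (saline-treated AS mouse 44), 10371 (DEX-treated AS mouse 60) and 12977 (DEX-treated control mouse 101), and the other 21 ran from 13452 to 17368. Without them the means of those 3 groups were 15896 ± 842, 15918 ± 294 and 15854 ± 400 (n = 3). The libraries left out were picked as the lowest in these genes, so the higher means follow from that choice.

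**Figure D4:**
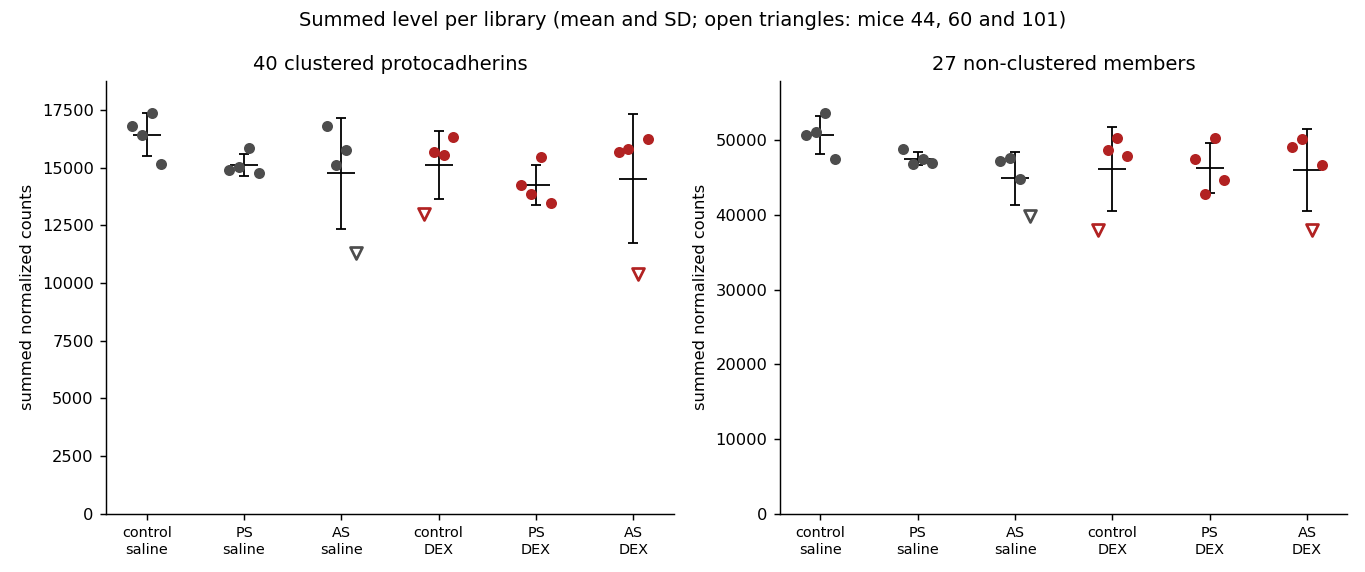
Summed normalized counts per library of the 40 clustered (left) and 27 non-clustered genes (right), by group; points are libraries, bars are mean and SD of 4, and open triangles mark mice 44, 60 and 101. The clustered sums of these 3 libraries are 11321, 10371 and 12977, below the 13452 to 17368 of the other 21.

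The lowering ran across the clusters and beyond them. In mouse 60, 39 of 40 clustered genes were below their own mean over the 24 libraries, in mouse 44 38, and in mouse 101 34, while 48.7% to 49.7% of all genes were below theirs in any library. These libraries were picked as the lowest in the clustered genes, so high clustered counts here follow from that choice and are a description only. Non-clustered genes were low in the same libraries, 22, 23 and 21 of 27 in mice 60, 44 and 101. DEX-treated PS mouse 56 also had 35 clustered and 23 non-clustered genes below their mean, at a clustered sum of 13452.

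Transcript length moved with this. Across 11885 genes, the deviation of a library from its group median correlated with log2 transcript length at r = -0.62 in mouse 60, -0.52 in mouse 44 and -0.47 in mouse 101, and at -0.46 in DEX-treated PS mouse 34, whose clustered sum was 13863. In the other 20 libraries r ran from -0.26 to 0.46. The median transcript length was 4722 bases over clustered genes, 5168 over non-clustered genes and 3542 over all genes used. Genes are not independent replicates, and the part of length in the cadherin levels was not tested beyond the covariate described below.

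**Figure D5:**
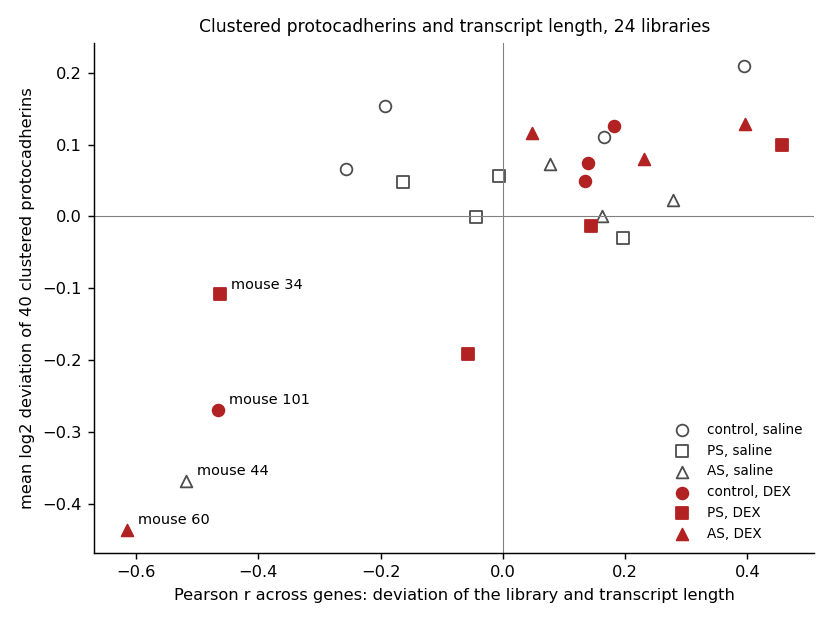
Each of the 24 libraries by the Pearson r, across 11885 genes, between its deviation from the group median and log2 transcript length (x axis) and by the mean log2 deviation of the 40 clustered genes from their means over all libraries (y axis); open symbols are saline-treated and red symbols DEX-treated mice, with circles for control, squares for PS and triangles for AS mice. Mice 60, 44 and 101 lie at the lower left, at mean deviations of -0.44, -0.37 and -0.27, and DEX-treated PS mouse 34 has a similar r with a mean deviation of -0.11.

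Agreement among the clustered genes was also taken with and without these libraries. They were picked as the lowest in these same genes, so a lower correlation without them follows in part from that choice. It is therefore no separate finding. After group means were taken out, the median correlation over the 780 pairs of clustered genes was 0.45 over 24 libraries and 0.09 without the 3. For the 351 non-clustered pairs it was 0.25 and 0.11. These are descriptions over libraries that share their depth and length profile.

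Counts of calls changed when the 3 libraries were left out or the length dependence was fitted, choices made after seeing the data. Without the 3 libraries, 3 cadherin genes were called in PS against control mice (Pcdhgc4, Pcdhga10 and Cdh2), 8 in the DEX effect in AS mice, among them Pcdha5 and Pcdhgc3, and 9 in the mean DEX effect. Calls over all genes also rose, to 746, 2186 and 2931 in the same order, against 213, 1237 and 2185 in the main fit. With the length covariate, 12 cadherin genes were called under DEX in controls, 4 of them clustered (Pcdhac2, Pcdha5, Pcdhgb6 and Pcdhga10), and 14 in the mean DEX effect. Of all genes, 1778 and 3122 were called in the same order, against 915 and 2185 without the covariate. No clustered gene was called by edgeR, DESeq2, quantile normalization or another pseudocount.

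Several other non-clustered genes did not pass under DEX in limma. Cdh13, a cadherin anchored to the membrane by a lipid tail, had 0.04 ± 0.10, 0.22 ± 0.10 and 0.13 ± 0.10 on the log2 scale under DEX in control, PS and AS mice, Cdh4 (R-cadherin, type I) had 0.01 ± 0.10, -0.02 ± 0.10 and -0.08 ± 0.10, and Pcdh15, known as a tip-link protein of hair cells, had 0.04 ± 0.14, -0.13 ± 0.14 and -0.18 ± 0.14, none of which passed in limma. Pcdh9, a delta-1 gene, had 0.28 ± 0.10 in AS mice (adjusted p = 0.105) and was called there by edgeR and DESeq2. Cdh2 had 0.19 ± 0.07 in AS mice (limma, adjusted p = 0.137) and was called there by DESeq2 (adjusted p = 0.0816). Cdh7, a type II cadherin named because other tools called it, had 0.19 ± 0.08 in the mean DEX effect (limma, adjusted p = 0.114), which edgeR and DESeq2 called.

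Differences in DEX response between kinds of mice gave no call among the 67 genes in limma or edgeR. DESeq2 called 2, Pcdh9 and Cdh20, for AS against control mice. In PS against control mice, the response of 4 genes was higher and of 2 lower at an unadjusted p under 0.05, beside 4.79% and 5.21% of all genes. In AS against control mice 6 genes reached that limit in either direction, beside 13.6%, and between AS and PS mice 3 did, beside 2.46%. The background of calls was 0% for PS, 0.349% for AS and 0% between them. The clustered median of the AS difference was 0.19, and 0.15 without the 3 low libraries. In the test for any difference among the 6 groups, 5 genes passed (Pcdh20, Cdh19, Pcdh18, Cdh20 and Cdh11), where the background was 14.9%. Without the 3 low libraries 14 passed, and the share of all genes called in that fit is not given here.

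Cdh1 had the largest DEX effect among the 67 genes in PS and in AS mice, and is described because its values stood out. Its normalized counts were 111, 114, 153 and 52 in saline-treated controls, 169, 165, 240 and 114 in saline-treated AS mice, and 90, 64, 60 and 128 in DEX-treated AS mice. The DEX effect was -1.01 ± 0.39 in AS and -0.91 ± 0.39 in PS mice on the log2 scale, with adjusted p of 0.138 and 0.265 in limma, and 0.37 ± 0.39 in controls. Its saline-treated and DEX-treated groups overlapped in AS mice. They overlapped in PS mice too, with 176, 126, 201 and 64 normalized counts under saline and 64, 32, 106 and 104 under DEX. The AS effect was called by edgeR and not by DESeq2. The median of the 6 leptomeningeal markers under DEX was 0.37 in control, -0.66 in PS and -0.61 in AS mice, in the same directions as Cdh1. The part of meningeal cells in the Cdh1 result was not tested.

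Partners of cadherins were counted from lists of known roles. Of 9 catenins, which couple classical cadherins to actin, 8 were in the table, and 0 passed by limma in any of the 10 comparisons. Of 12 other cadherin superfamily genes 10 were in the table. Celsr1, a cadherin of planar cell polarity, fell in PS mice (-0.95 ± 0.25, adjusted p = 0.0309) and AS mice (-1.12 ± 0.25, adjusted p = 0.00746), with 406, 269, 319 and 133 normalized counts under saline and 164, 103, 95 and 128 under DEX in AS mice, and -0.74 ± 0.25 in controls (adjusted p = 0.111). Clstn2, a synaptic calsyntenin, rose in AS mice (0.33 ± 0.10, adjusted p = 0.0579).

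Of 15 listed regulators of protocadherin promoter choice, 14 were analysed. The cohesin subunit Smc1a fell under DEX in controls (-0.18 ± 0.06, adjusted p = 0.0725) and rose in AS mice (0.20 ± 0.06, adjusted p = 0.0431). This difference in response, 0.38 ± 0.08, passed the test itself (limma, adjusted p = 0.0739). The DNA methyltransferase Dnmt3a fell in the mean over the 3 kinds of mice (-0.17 ± 0.05, adjusted p = 0.0477). Of 10 WAVE complex and focal adhesion kinase genes, Abi1 rose in controls (0.17 ± 0.06, adjusted p = 0.0803), in AS mice (0.21 ± 0.06, adjusted p = 0.0229) and in the mean (0.17 ± 0.03, adjusted p = 0.000521), and no other member passed in these comparisons.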

How the data were processed

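RNA-seq libraries from the PFC of 24 mice (4 per group, 1 library per mouse) were grouped by their labels. Per the labels and the study's methods, the authors trimmed reads with fastp 0.20.1, aligned them to mm10 with HISAT2 2.2.1, counted them per gene with featureCounts (Subread 2.0) and normalized the counts with DESeq2 1.36.0. The deposited signal values are those normalized counts, and each was a whole number of reads (100% within 0.01 read) once divided by the value of 1 read. The deposited tables also held gene positions and the authors' own comparisons, of which the presence of a p-value alone was used, to define the 14060 genes tested; their values were neither used nor compared.

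Values were transformed as log2(normalized count + 1) and fitted over all 6 groups with limma 3.58.1 (R 4.3.3) with a mean-variance trend. Adjusted p is Benjamini-Hochberg over 14060 genes, with a threshold of 0.1, and ± on log2 values is the standard error. Recovered reads were also tested with edgeR 4.0.16 and DESeq2 1.42.0. Fold changes on this scale understate the change of genes with few counts. Scripts were tested on simulated data. Genes named in the text are those that passed, the most abundant of each subfamily, and others said to be chosen after their values were seen. The gene set and the gene lists were chosen with earlier results of these data known. Alternatives were another pseudocount, minimum mean, gene set and normalization, fits to only the groups compared, library size as a covariate, edgeR and DESeq2, and leaving out each library; 4 were added after seeing the data. Since the labels do not say that the mice came from separate litters or cages, p-values measure the spread between these mice.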

Additional observations from a re-analysis of the deposited data

Results flagged for a closer look

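Among 24 features (the named genes and the 2 summed levels) in 6 groups of 4, 18 of 144 groups held a library far from the other 3 by Dixon's test of the gap over the range, or 12.5%, where chance gives about 5%. Most low values came from the 3 libraries described above, and the causes were not tested.

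Under DEX, AS mouse 60 stood low in Pcdhgc5 (2136 normalized counts, the others 3705 to 4006), Pcdhb17 (365, the others 464 to 481), Cdh2 (2725, the others 3317 to 3337) and Cdh4 (684, the others 893 to 913). Its summed clustered level was 10371, with the others at 15683 to 16247. DEX-treated control mouse 101 stood low in Cdh11 (1570, the others 2028 to 2063) and in Pcdhgc5 (3017, the others 3745 to 3814). Saline-treated AS mouse 44 stood low in Pcdhgc3 (1182, the others 1907 to 1987).

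Libraries highest in olfactory bulb markers gave most of the high values. Saline-treated PS mouse 2 had 303 in Cdh19 (the others 217 to 230), DEX-treated control mouse 122 had 401 in Pcdh20 (363 to 366), saline-treated AS mouse 14 had 469 in Cdh20 (385 to 398), and DEX-treated AS mouse 38 had 2165 in Cdh13 (1482 to 1566). DEX-treated PS mouse 34 had 2231 in Cdh22 (1860 to 1916) and 1039 in Cdh4 (914 to 935).

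The others lay in no such library. DEX-treated AS mouse 72 had 2128 in Cdh22 (1801 to 1840), saline-treated PS mouse 62 had 489.9 in Pcdhb17 (447 to 454), and saline-treated control mouse 107 had 434 in Pcdhb17 (472 to 480) and 3048 in Cdh2 (3111 to 3117).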

How the results depend on the processing

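No result changed direction in any setting where it had a call. Of 406 counts of cadherin genes called over all settings, 368 stayed within 1.5 times. Many of these set 0 against 0, in comparisons without a call in the main fit, so the total overstates how steady the other counts were. Under DEX in AS mice the count ran from 2 to 11 over the settings, beside 3 in the main fit. In PS against control mice under saline, where 0 were called, fitting only those groups gave 1, leaving out the 3 low libraries 3 and the length covariate 2. Of all genes these fits called 538, 746 and 1139 there, against 213 in the main fit. The length covariate gave 12 under DEX in controls, 11 in AS mice and 14 in the mean. It gave 4 for the difference in response between AS and control mice and 17 for any group. Of all genes it called 1778, 2133, 3122 and 881 in the comparisons before the last, against 915, 1237, 2185 and 49 in the main fit. Leaving out the 3 low libraries gave 8 under DEX in AS mice, beside 2186 of all genes, and 14 for any group. Leaving out the 6 libraries highest in olfactory bulb markers gave 2 under DEX in PS mice and 2 for any group. In PS mice that fit called 395 of all genes under DEX, against 759 in the main fit. For any group, the number of all genes called in these alternative fits is not given here. Under DEX in AS mice edgeR with TMM gave 5 (3 higher, 2 lower), edgeR with the authors' size factors 5, and DESeq2 5 (4 higher, 1 lower), against 2 higher and 1 lower in limma. Of all genes these fits called 1353, 1343 and 1613, against 1237 in limma. For the difference in response of AS mice DESeq2 gave 2, and it called 440 of all genes there, against 49 in limma. Quantile normalization gave 1 higher and 5 lower in the mean DEX effect, against 2 and 4. The cause of these shifts was not tested.

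Leaving out 1 library gave 2 to 5 genes under DEX in controls, 2 to 5 in PS mice, 2 to 9 in AS mice, 5 to 9 in the mean, 0 to 4 for the AS difference in response and 3 to 8 for any group, and DEX-treated AS mouse 60 gave the highest count in the last 4. A clustered gene was called in 7 settings. No paired analysis was possible because mouse numbers do not recur between groups. With 4 libraries a group, the smallest p an exact permutation test allows is 0.0286.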
